A study of Homo sapiens with 12 samples.

Results

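The everolimus effect that A431 and HSC-1 cells had in common was described as the genes whose mean shift, everolimus minus the vehicle DMSO, had the same sign in both lines. Where a gene had several probe sets, the 1 of highest mean on the 12 arrays stood for it. Of 14884 genes with a named probe set, 7843 had shifts of the same sign and 7041 had shifts of opposite sign. Genes entered the test if 3 or more arrays read above their own median over all probe sets. This kept 10613 genes, of which 5719 had the same sign (53.9%), with 2535 above 0 in both lines (23.9%) and 3184 below 0 (30.0%). A gene that passed this filter through some groups can be low in the others.

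A431 and HSC-1 are established human cell lines of cutaneous squamous cell carcinoma. Both were grown in serum-containing medium and were exposed for 72 h to DMSO alone or to everolimus at 100 nM, and 3 arrays were run for every one of the 4 groups. All cells thus shared the vehicle, the serum and the harvest time, and no earlier time, other dose or untreated culture was analysed here. Whether the 3 arrays of a group stem from independent cultures is not stated in the labels, so the p-values cover no more than the spread among the arrays at hand, and that spread may be technical.

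Everolimus is a rapamycin analogue. It binds the protein FKBP12, and the pair inhibits mTOR complex 1, the kinase complex that couples growth factors, amino acids and energy to protein, lipid and nucleotide synthesis. Among the transcripts whose translation depends most on this complex are those of ribosomal proteins and translation factors, which begin with a C followed by a run of pyrimidines, the terminal oligopyrimidine (TOP) motif. In the epidermis, mTOR signalling also takes part in the balance between growth of basal keratinocytes and their cornification.

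All values below are log2 expression, and a shift is a difference of log2 means. On the arrays, the keratinocyte label was borne out by all 9 measured keratinocyte markers lying above the array median on all 12 arrays, KRT14 between 9.64 and 10.1 among them. Of the other cell types, the fibroblast marker DCN, the melanocyte markers MLANA, PMEL, TYR and TYRP1, the leukocyte markers LYZ and CD163 and the endothelial markers PECAM1, VWF and KDR were not tested because fewer than 3 arrays reached the array median. Other markers on these lists were above the array median on all 12 arrays, namely the fibroblast marker THY1 (4.57 to 4.99), the melanocyte markers MITF (5.09 to 5.9) and SOX10 (5.32 to 5.87), the leukocyte marker CD68 (7.72 to 10.7) and the endothelial markers ERG (4.86 to 6.4) and CLDN5 (5.18 to 5.72). LUM (2.43 to 5.04) and CD14 (3.62 to 4.77) were above it on some arrays. The lines set the arrays apart far more than the drug did: the first principal component separated the lines and held 85.7% of the variance. Array correlations were 0.989 to 0.992 within a group, 0.987 to 0.991 between treatments of 1 line and 0.955 to 0.962 between lines. Array medians ranged from 4.34 to 4.39, and no array stood apart within its group on these measures.

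In the additive limma fit, with treatment and cell line as terms and p-values adjusted by Benjamini-Hochberg over all 10613 genes, 950 genes passed an adjusted p of 0.05 with the same sign in both lines (8.95% of the genes tested). Of these, 375 were higher (3.53%) and 575 lower (5.42%) with everolimus. Another 5 genes passed with opposite signs, namely CDC6, COTL1, DCTPP1, PSAT1 and RASA4. At an unadjusted p of 0.05, 2440 genes passed (23.0%). The sign condition uses the same arrays as the test, so the counts describe these genes and the agreement in sign is no separate evidence for them. When the arrays were quantile normalized again, the count became 1005 and the share that was higher moved from 39.5% to 52.7%; the median of all genes moved from -0.0145 to -7.28e-05. The split into higher and lower genes therefore depends on the scaling, and 845 genes were called under both. Without HSC-1 DMSO replicate 2 the higher genes numbered 244 in place of 375. With 4 group means, which keep the difference between the lines out of the residual, the lower genes numbered 872 in place of 575.

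The common shifts were small. Among the 950 genes the median size of the common shift was 0.244, against 0.0797 over all genes tested. A change of at least 1.5-fold was reached by 7 of the higher and 26 of the lower genes, and 8 genes, all lower, changed at least 2-fold. The everolimus and DMSO arrays did not overlap in either line for 562 of the 950 genes, and over all genes tested 6.6% separated in this way in 1 direction (2.64% higher and 3.96% lower) while 3.97% did so in opposite directions.

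Each line alone, from a fit of the 4 group means, called 714 genes in A431 (6.73%; 2.39% higher and 4.33% lower) and 1977 in HSC-1 (18.6%; 7.34% higher and 11.3% lower). The A431 count became 458 without A431 DMSO replicate 1 and 456 without A431 DMSO replicate 2. A stricter sense of common, passing in each line alone with the same sign, held for 219 genes (2.06%; 0.782% higher and 1.28% lower), which was 30.7% of the A431 calls and 11.1% of the HSC-1 calls; 85 genes (0.801%) passed in each line with opposite signs. Across all genes tested, the shifts in the lines were only weakly related, with Pearson's r of 0.129 and Spearman's rho of 0.0985, given as a description over genes that share the same arrays. The A431 and HSC-1 shifts are set against each other in the plot of all tested genes.

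**Figure D1:**
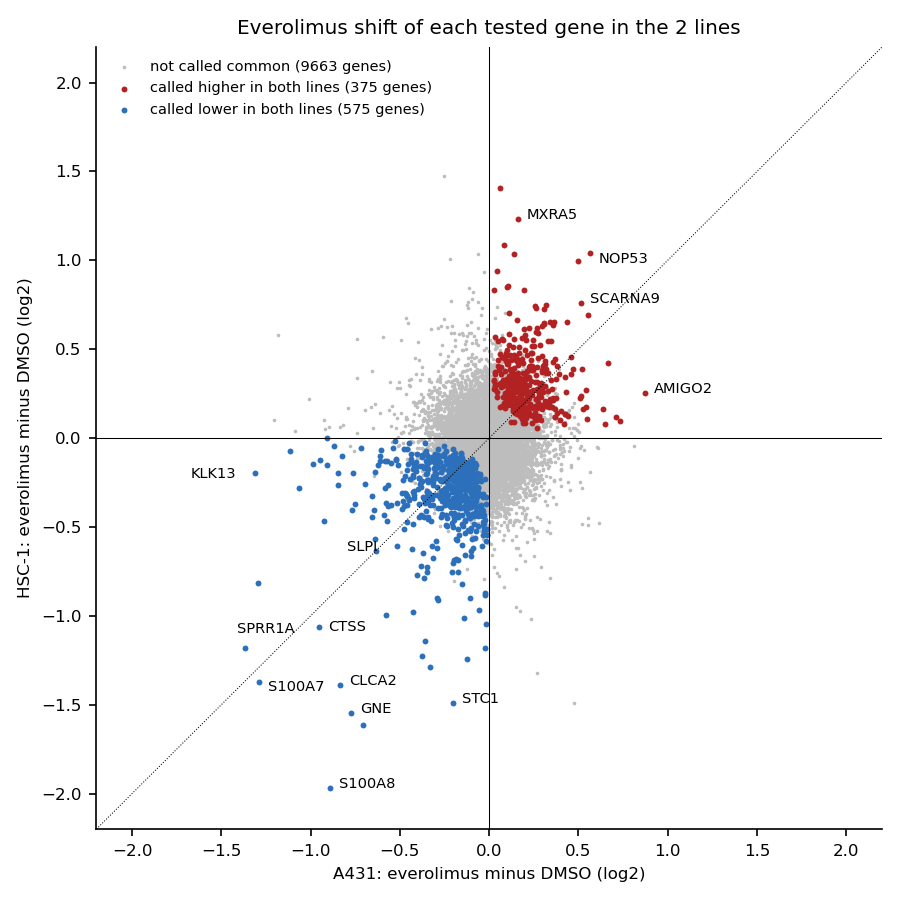
Everolimus shift (everolimus minus DMSO, log2) of each of the 10613 tested genes in A431 (horizontal axis) and HSC-1 (vertical axis), with the 375 genes called higher in red, the 575 called lower in blue and the others in grey; the dotted line marks equal shifts. The called genes lie at upper right and lower left, the long tail lies at lower left with S100A8, S100A7 and SPRR1A, and many called genes lie near 1 axis, such as STC1 and MXRA5 close to the HSC-1 axis.

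The clearest rise in both lines was in the protein synthesis machinery, so the starts of its transcripts are shown first. Each line below gives 10 bases before and 20 bases from an annotated transcript start, 5′ to 3′, from RefSeq (GRCh38.p14), and capitals mark a C at the start with the pyrimidines that follow it. EIF4B, EEF2, 4 ribosomal protein genes and NOP53 rose with everolimus and begin with such a run, EEF1G rose and does not, and SPRR1A and S100A7 fell and do not.
EIF4B: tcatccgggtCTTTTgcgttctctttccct
EEF2: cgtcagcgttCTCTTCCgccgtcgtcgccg
RPS18: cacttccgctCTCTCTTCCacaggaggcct
RPS9: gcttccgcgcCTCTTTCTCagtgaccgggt
RPS16: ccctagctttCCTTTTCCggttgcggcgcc
RPS6: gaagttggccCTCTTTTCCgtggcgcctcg
NOP53: tggctgagttCTTCCTTTgacaagatggcg
EEF1G: cgggcggcttactttgcggcagcgccgaga
SPRR1A: ttgccttcacaccaaacccaagggaccaca
S100A7: gtccaaacacacacatctcactcatccttc

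These windows lie at chr12:53006446-53006475 on the plus strand for EIF4B, chr19:3985444-3985473 on the minus strand for EEF2, chr6:33272065-33272094 on the plus strand for RPS18 and chr19:54200848-54200877 on the plus strand for RPS9. RPS16 lies at chr19:39435930-39435959 on the minus strand, RPS6 at chr9:19380217-19380246 on the minus strand and NOP53 at chr19:47745536-47745565 on the plus strand. EEF1G lies at chr11:62573872-62573901 on the minus strand, SPRR1A at chr1:152984071-152984100 on the plus strand and S100A7 at chr1:153460632-153460661 on the minus strand. In every window the upstream part is promoter and the rest is the first exon, whose opening is 5′ untranslated sequence in the protein-coding genes.

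Ribosomal protein genes encode the structural proteins of both ribosomal subunits. Of 79 on the list, 46 were tested; 26 rose in both lines and none fell, while 20 missed the threshold. The median common shift of the 46 was 0.22 against -0.0145 for all genes. The shifts of 41 of the 46 were above 0 in each line, and the other 5 had opposite signs. The count of risers stayed between 24 and 29 when each array was left out in turn and under the other settings tried, apart from the replicate block given in the closing section.

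RPS18 (probe set values on the log2 scale) read 8.24, 8.21 and 7.99 in A431 with DMSO and 8.53, 8.47 and 8.49 with everolimus, and 8.04, 8.07 and 7.89 in HSC-1 with DMSO and 8.5, 8.43 and 8.71 with everolimus. All everolimus arrays lay above all DMSO arrays of their line, and the common shift was 0.45 ± 0.059 (SE, 6 against 6 arrays; adjusted p = 0.000147, limma). RPS16 read 7.11, 7.23 and 7.2 in A431 with DMSO against 7.53, 7.79 and 7.51 with everolimus, and 7.41, 7.5 and 7.68 in HSC-1 with DMSO against 7.83, 7.87 and 7.93. Its arrays also did not overlap in either line, with a common shift of 0.39 ± 0.057 (adjusted p = 0.000358, limma). RPS9 rose by 0.39 ± 0.057 and RPS15A by 0.37 ± 0.057. RPS6, which encodes the ribosomal protein whose phosphorylation is the usual readout of mTOR complex 1 activity, rose by 0.32 ± 0.046 (adjusted p = 0.000301, limma), 0.23 in A431 and 0.41 in HSC-1. For none of RPS18, RPS9, RPS16, RPS15A and RPS6 did the difference between the lines pass, with adjusted p from 0.157 to 0.788.

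The genes that did not pass were also mostly above 0. RPL31 had a common shift of 0.33 with an adjusted p of 0.051, while RPL29 stood at 0.14 in A431 and -0.24 in HSC-1 and RPL32 at 0.25 and -0.14. Ribosomal protein genes have many processed pseudogenes of nearly the same sequence, and an array may not tell them apart. RPL13AP20, named as such a pseudogene, was itself among the 12 genes with the largest rises, at 0.55 ± 0.044 (adjusted p = 9.26e-07, limma).

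**Figure D2:**
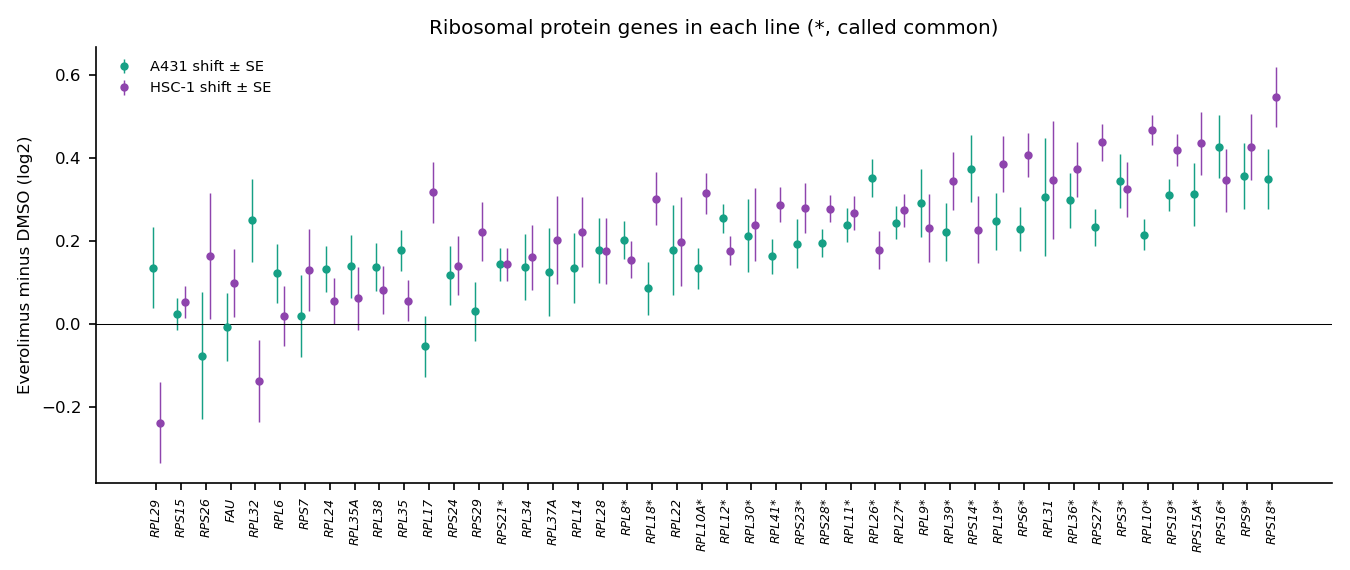
Everolimus shift (everolimus minus DMSO, log2) of the 46 tested ribosomal protein genes in A431 (green) and HSC-1 (purple), ordered by the common shift; points are shifts and bars SE from the fit of 4 group means, with an asterisk on genes called common. In 41 genes both points lie above 0, from RPS15 near the axis to RPS18 at 0.35 and 0.55.

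The pyrimidine start was more frequent among the risers than among the genes that fell. A start with a C and at least 4 further pyrimidines, at any start that the RefSeq table gives for the gene, was present in 554 of 8089 tested genes with a listed start (6.85%). The share was 18.8% (53 of 282) among genes called higher and 3.73% (18 of 482) among those called lower. Leaving out the ribosomal proteins, of which 31 of 43 had it, the risers still stood at 35 of 259 (13.5%), against 523 of 8046 (6.5%) for all tested genes without the ribosomal proteins. Seen from the other side, 9.57% of the genes with a pyrimidine start were called higher and 3.25% lower, against 3.04% and 6.16% of the 7535 genes without one. These shares are descriptions: annotated starts are not the starts used in these cells, and genes of 1 family are not independent. Of all 35116 starts in the table, 4.07% have the run.

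Translation factors and other transcripts known for a TOP motif gave 4 risers and no genes that fell among 12 tested, with a median common shift of 0.102. EEF1G, a subunit of the elongation factor complex, read 10.51, 10.56 and 10.52 in A431 with DMSO and 10.88, 10.85 and 10.88 with everolimus, and in HSC-1 10.02, 9.95 and 9.89 against 10.54, 10.57 and 10.72. It rose on every everolimus array, by 0.5 ± 0.053 (adjusted p = 1.86e-05, limma), more in HSC-1 (0.65) than in A431 (0.34; adjusted p of the difference = 0.0035). EIF4B, an initiation factor that helps the helicase EIF4A unwind leaders and is itself a target of the S6 kinases, read 9.24, 9.24 and 9.18 in A431 with DMSO against 9.59, 9.48 and 9.57, and 8.99, 8.89 and 8.94 in HSC-1 with DMSO against 9.47, 9.53 and 9.47. Its common shift was 0.44 ± 0.043 (adjusted p = 8.97e-06, limma), with no overlap in either line. EEF2, the translocation factor, rose by 0.26 ± 0.035 and NAP1L1, a histone chaperone, by 0.25 ± 0.054. EEF1A1 (0.11), NACA (0.04) and VIM (-0.01) did not pass.

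Among the genes called higher without overlap, NOP53, a nucleolar protein needed to mature the large ribosomal subunit, had the largest rise. It read 8.62, 8.6 and 8.59 in A431 with DMSO and 9.09, 9.22 and 9.19 with everolimus, and 7.69, 7.71 and 7.7 in HSC-1 with DMSO and 8.65, 8.74 and 8.84 with everolimus. The DMSO arrays of each line nearly coincided, and NOP53 rose by 0.8 ± 0.07 in common (1.74-fold; adjusted p = 2.3e-06, limma), by 0.56 in A431 and 1.04 in HSC-1 (adjusted p of the difference = 0.000193). The rest of the ribosome biogenesis list did not move with it. Of 24 tested genes, NOP53 and the rRNA methyltransferase FBL (0.18 ± 0.038) rose, NOP2 and WDR12 passed as lower, and 19 had opposite signs in the lines. Without A431 DMSO replicate 3 the NOP2 shifts no longer had the same sign, and the WDR12 call was lost without any of 7 arrays in turn, with an adjusted p of up to 0.102 without HSC-1 DMSO replicate 2. The median shift of this list was 0.0863 in A431 and -0.251 in HSC-1.

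Host genes of small nucleolar RNAs, noncoding transcripts that often carry a TOP start, gave 4 risers among 9 tested, with a median of 0.18. GAS5 rose by 0.24 ± 0.051 (adjusted p = 0.00736, limma), 0.22 in A431 and 0.25 in HSC-1. The annotated start of GAS5 lacks the pyrimidine run. Its A431 arrays overlapped, at 9.03, 8.82 and 8.75 with DMSO against 9.1, 8.99 and 9.18 with everolimus. The other 3, SNHG5, ZFAS1 and SNHG8, were called by a narrow margin. The count of 4 became 1 without A431 everolimus replicate 3, and 2 without HSC-1 DMSO replicate 2, HSC-1 DMSO replicate 3 or HSC-1 everolimus replicate 1. Small Cajal body RNAs, which guide modification of spliceosomal RNAs, were singled out after their values were seen. Of the 23 tested genes that RefSeq types as ncRNA, 7 rose and none fell (30.4% called, against 8.95% of all genes tested). This type was not split by kind of RNA. SCARNA9 was at 0.64 ± 0.088, 0.52 in A431 and 0.76 in HSC-1; its A431 arrays touched, at 7.76, 7.18 and 7.12 with DMSO against 7.75, 7.86 and 7.99. SCARNA7 rose by 0.52 ± 0.076 and SCARNA2 by 0.41 ± 0.057, the latter by 0.46 in A431 and 0.36 in HSC-1.

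**Figure D3:**
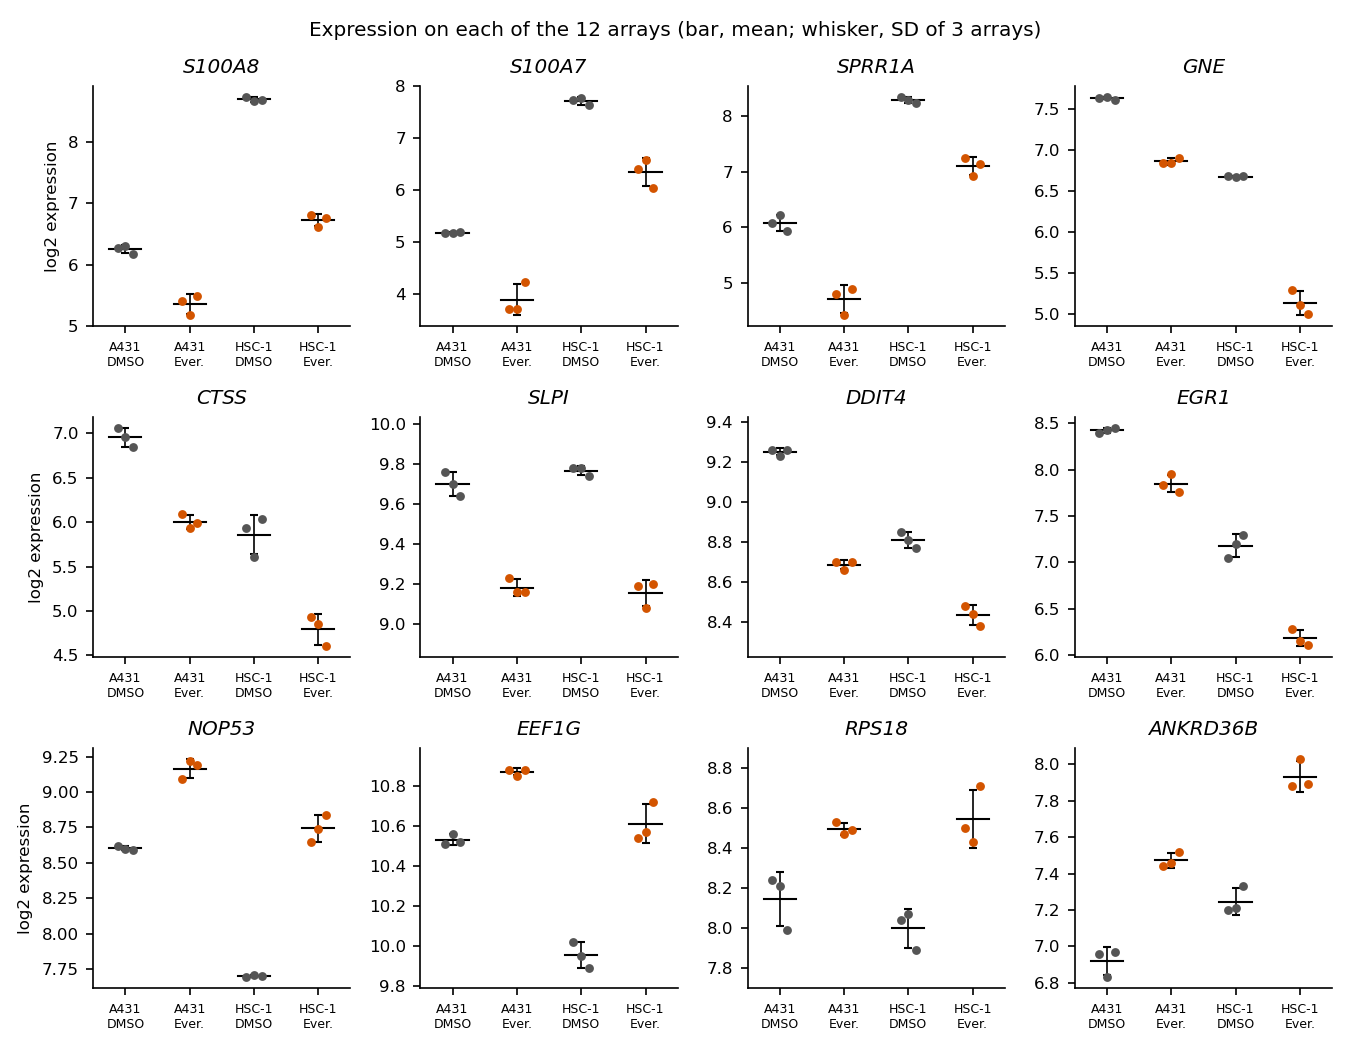
Log2 expression of 12 genes on each of the 12 arrays; points are arrays (grey, DMSO; orange, everolimus), bars group means and whiskers the SD of 3 arrays, on axes that do not start at 0 and differ between panels. In each of the 12 panels the everolimus arrays of a line lie wholly on 1 side of its DMSO arrays, below them for S100A8 to EGR1 and above them for NOP53 to ANKRD36B.

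Genes that act in or on mTOR complex 1 changed little as a group. Of 21 tested, TSC2 and MTOR passed as higher, DDIT4 and AKT1S1 as lower, and the median was -0.00428. DDIT4 (REDD1), a stress-induced inhibitor of the complex, fell most: it read 9.26, 9.23 and 9.26 in A431 with DMSO against 8.7, 8.66 and 8.7, and 8.85, 8.81 and 8.77 in HSC-1 with DMSO against 8.48, 8.44 and 8.38. The groups lay well apart in both lines, and DDIT4 fell by 0.47 ± 0.04 (adjusted p = 1.83e-06, limma). AKT1S1, which encodes the inhibitory subunit PRAS40, fell by 0.27 ± 0.059, and MTOR, the kinase itself, rose by 0.18 ± 0.041 (adjusted p = 0.00883, limma). The call of TSC2, 0.2 ± 0.051, was lost without any of 5 arrays in turn, with an adjusted p of up to 0.0655 without HSC-1 DMSO replicate 2. RHEB, the GTPase that activates the complex, did not pass at 0.11 ± 0.064, nor did EIF4EBP1, the translational repressor, at -0.13 ± 0.079, 0.11 in A431 and -0.37 in HSC-1.

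Of the 15 tested substrates and effectors, EIF4B rose, and the lysosomal transcription factors MITF (-0.28 ± 0.068; adjusted p = 0.0163, limma) and TFE3 were lower. The TFE3 call was lost without any of 8 arrays in turn, with an adjusted p of up to 0.0904 without HSC-1 everolimus replicate 2, and the count of risers became 2 without A431 everolimus replicate 2. TFEB, the best known of that family, stood at -0.29 ± 0.11 and did not pass. None of 8 genes of mTOR complex 2 and AKT passed; the smallest p was that of SGK1, at -0.23 ± 0.1, whose 6 A431 arrays were all below the array median. In the lysosome and autophagy list, whose genes MITF, TFEB and TFE3 regulate, LAMP1 rose (0.2 ± 0.043) and CTSS fell among 23 tested, and 11 had opposite signs in the lines. Calls made up 8.7% of the tested list, against 8.95% of all genes tested. The count of risers became 2 without any of A431 DMSO replicates 1, 2 and 3 and A431 everolimus replicates 2 and 3.

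Growth factor receptors, insulin receptor substrates and FOXO targets gave 5 risers and no genes that fell among 19 tested, with a median of 4e-05. IGF1R, the receptor of insulin-like growth factors, read 8.1, 8.06 and 8.16 in A431 with DMSO against 8.33, 8.25 and 8.22, and 8.06, 8.06 and 8.15 in HSC-1 with DMSO against 8.55, 8.49 and 8.46. The groups did not overlap in either line, and IGF1R rose by 0.29 ± 0.049 (adjusted p = 0.00135, limma), more in HSC-1. IRS2, the adaptor of insulin and IGF receptors, passed with a common shift of 0.48 ± 0.11 (adjusted p = 0.0141, limma), yet its arrays overlapped in A431, at 5.56, 5.18 and 5.26 with DMSO against 5.33, 5.56 and 5.42. Its shift was 0.1 in A431 and 0.85 in HSC-1, a difference that passed (adjusted p = 0.00109). MET rose by 0.25, 0.2 in A431 and 0.3 in HSC-1. EGFR, which A431 cells are known to express in excess, was at 11.67, 11.63 and 11.64 with DMSO in A431 and 11.57, 11.62 and 11.71 with everolimus, and its common shift was 4e-05 ± 0.03. The count of 5 became 3 without HSC-1 DMSO replicate 1 or HSC-1 everolimus replicate 1. FGFR2 and CCNG2 passed only narrowly: 6 arrays ended the call of FGFR2 when left out, with an adjusted p of up to 0.0831 without HSC-1 everolimus replicate 2, and 2 arrays that of CCNG2, with 0.0518 without HSC-1 DMSO replicate 1.

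Genes of fatty acid synthesis and of its regulator SREBP1, whose processing mTOR complex 1 promotes, were lower in 4 of 16 tested. None was higher, and the median was -0.158. Over all genes tested, 5.42% were called lower and 3.53% higher. Of the 16, 10 were below 0 in both lines and 2 above 0 in both. The other 4 had opposite signs, among them FASN (-0.42 in A431 and 0.1 in HSC-1) and ACSL1 (-0.92 and 0.05). Only 1 of the 16 passed in each line alone with the same sign. SREBF1, which encodes SREBP1, read 7.62, 7.6 and 7.61 in A431 with DMSO against 7.07, 7.12 and 6.94, and 6.11, 6.15 and 6.12 in HSC-1 with DMSO against 5.88, 5.9 and 5.81. It fell without overlap in both lines, by 0.42 ± 0.06 in common (adjusted p = 0.00029, limma), with shifts of -0.57 in A431 and -0.26 in HSC-1. SCD, the stearoyl-CoA desaturase, had its larger shift in A431 (-0.58 against -0.13; adjusted p of the difference = 0.000334), and the elongase ELOVL6 in HSC-1 (-0.1 against -0.66; 0.00495). ACLY, which supplies cytosolic acetyl-CoA, fell by 0.15 ± 0.037. In the cholesterol list 2 of 17 passed (11.8%, against 8.95% of all genes tested), both lower. DHCR7, which makes the last step to cholesterol, fell by 0.28 ± 0.039 (adjusted p = 0.000224, limma), 0.23 in A431 and 0.32 in HSC-1. The other, STARD4, lost its call without any of 7 arrays in turn, with an adjusted p of up to 0.0959 without HSC-1 DMSO replicate 3.

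Glycolysis and hypoxia genes, many of them HIF1 targets, were lower in 6 of 14 tested and higher in none, with a median of -0.126. PGAM1, phosphoglycerate mutase, fell by 0.26 ± 0.053 (adjusted p = 0.00481, limma), by 0.25 in A431 and 0.28 in HSC-1. LDHA, lactate dehydrogenase, read 6.7, 6.63 and 6.7 in A431 with DMSO against 6.46, 6.55 and 6.62, and 6.7, 6.74 and 6.75 in HSC-1 with DMSO against 6.38, 6.37 and 6.34, with no overlap in either line and a common shift of -0.25 ± 0.056. VEGFA, the angiogenic factor, fell by 0.2 ± 0.05 (adjusted p = 0.0173, limma). The call of TPI1 (-0.34) was lost without any of 9 arrays in turn, with an adjusted p (limma) of up to 0.111 without HSC-1 DMSO replicate 3. The call of HK2 (-0.25) was lost without either of 2 arrays, with up to 0.0571 without HSC-1 everolimus replicate 2. The hypoxia targets ADM (0.03), NDRG1 (0.01), EGLN3 (0.04, with all A431 arrays below the array median) and BNIP3 (-0.01) did not pass, so the lower genes were mainly glycolytic enzymes.

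In the pentose phosphate and nucleotide list 2 of 26 passed (7.69%, against 8.95% of all genes tested), PRPS1 (-0.29 ± 0.058) and PGD (-0.14 ± 0.035), both lower. The amino acid response list, targets of ATF4, had 3 of 13 lower (23.1% called, against 8.95% of all genes tested). Of the 13, 6 were below 0 in both lines and 2 above 0 in both. The other 5 had opposite signs, among them ASNS (0.05 in A431 and -0.43 in HSC-1) and PSAT1 (0.05 and -0.77). CTH, which makes cysteine from cystathionine, fell by 0.41 ± 0.067 (adjusted p = 0.00101, limma), by 0.38 in A431 and 0.43 in HSC-1, and the pseudokinase TRIB3 fell by 0.25 ± 0.055. The call of PSPH was lost without any of 11 arrays in turn, with an adjusted p (limma) of up to 0.105 without HSC-1 DMSO replicate 2. Of 17 cytosolic tRNA synthetases, QARS1, whose transcript has a pyrimidine start, rose by 0.22 ± 0.043 while 4 were lower; none of those 4 passed without A431 DMSO replicate 1, HSC-1 DMSO replicate 1 or HSC-1 DMSO replicate 2, and 1 passed after quantile normalization. No gene of the mitochondrial respiration list passed (13 tested; smallest p for COX4I1, 0.1 ± 0.034, which passed after quantile normalization).

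**Figure D4:**
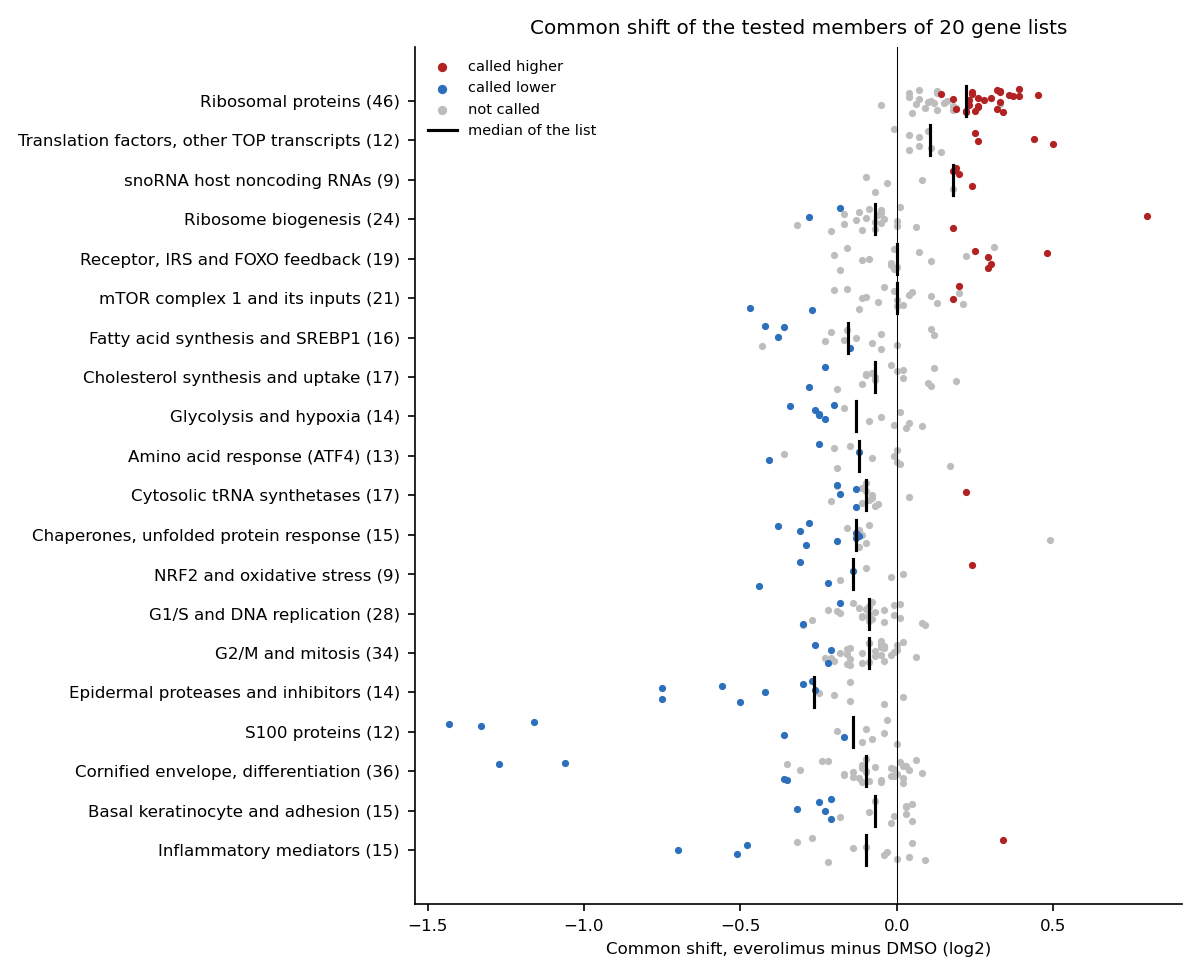
Common shift (everolimus minus DMSO, log2) of the tested members of 20 of the 35 gene lists, with the number tested in brackets; points are genes (red, called higher; blue, called lower; grey, not called) and black ticks the median of each list. Ribosomal proteins lie almost wholly right of 0 with a median of 0.22, while the epidermal protease list has the lowest median, at -0.264, and S100 and cornified envelope genes supply the plotted points beyond -1 (the lysosome list, with CTSS, is not plotted); TOP stands for terminal oligopyrimidine.

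The largest common shifts were falls in genes of the cornifying epidermis. S100A8 and S100A9, which pair as calprotectin in stressed and inflamed epidermis, S100A7 (psoriasin), and the cornified envelope precursors SPRR1A and SPRR1B were all among the 12 genes with the largest falls. S100A8 read 6.27, 6.3 and 6.18 in A431 with DMSO against 5.41, 5.17 and 5.48, and 8.74, 8.67 and 8.69 in HSC-1 with DMSO against 6.81, 6.62 and 6.76. It fell on every everolimus array, by 1.43 ± 0.14 in common (2.7-fold; adjusted p = 1.05e-05, limma), by 0.89 in A431 and 1.97 in HSC-1 (adjusted p of the difference = 7.96e-06). S100A9 read 7.39, 7.42 and 7.52 in A431 with DMSO against 6.9, 6.76 and 6.55, and 8.4, 8.32 and 8.36 in HSC-1 with DMSO against 6.65, 6.79 and 6.81. The pattern was that of its partner, with a common shift of -1.16 ± 0.12 (adjusted p = 1.93e-05, limma) and the larger fall in HSC-1.

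S100A7 fell by nearly the same amount in both lines. It read 5.18, 5.17 and 5.2 in A431 with DMSO against 3.72, 3.72 and 4.24, and 7.74, 7.78 and 7.63 in HSC-1 with DMSO against 6.4, 6.58 and 6.05. The 3 A431 arrays with everolimus were below the array median, so that the level there may be at the array's floor. The common shift was -1.33 ± 0.1 (2.52-fold; adjusted p = 3.84e-07, limma), -1.29 in A431 and -1.37 in HSC-1, a difference of -0.081 ± 0.19. S100A16 fell evenly too, by 0.36 ± 0.044, and S100A14 by 0.17. Of the 12 S100 genes tested, 5 fell and none rose, with a median of -0.138; S100A10 (-0.06 and 0.06), S100A2 (0.04 and -0.12) and S100P (0.05 and -0.11) in A431 and HSC-1 did not pass.

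SPRR1A read 6.07, 6.22 and 5.93 in A431 with DMSO against 4.81, 4.42 and 4.89, and 8.34, 8.28 and 8.23 in HSC-1 with DMSO against 7.24, 6.93 and 7.14. It fell without overlap by 1.27 ± 0.082 (2.42-fold; adjusted p = 1.1e-07, limma), by 1.37 in A431 and 1.18 in HSC-1. SPRR1B fell by 1.06 ± 0.13 (adjusted p = 0.000108, limma), but all 6 of its A431 arrays were below the array median, so its A431 shift of -1.3 rests on low signals. The 250 bases before their annotated starts (RefSeq, GRCh38.p14, plus strand; SPRR1A at chr1:152983831-152984080 and SPRR1B at chr1:153030953-153031202) are shown because AP-1 factors are known regulators of these genes. Capitals mark matches to the AP-1 motif TGANTCA, searched on both strands, of which SPRR1A has 1 and SPRR1B 2.
SPRR1A: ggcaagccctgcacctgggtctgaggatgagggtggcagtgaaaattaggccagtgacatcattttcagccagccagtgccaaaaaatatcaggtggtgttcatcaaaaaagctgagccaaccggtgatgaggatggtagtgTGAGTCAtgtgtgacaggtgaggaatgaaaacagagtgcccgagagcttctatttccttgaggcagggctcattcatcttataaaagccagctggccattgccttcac
SPRR1B: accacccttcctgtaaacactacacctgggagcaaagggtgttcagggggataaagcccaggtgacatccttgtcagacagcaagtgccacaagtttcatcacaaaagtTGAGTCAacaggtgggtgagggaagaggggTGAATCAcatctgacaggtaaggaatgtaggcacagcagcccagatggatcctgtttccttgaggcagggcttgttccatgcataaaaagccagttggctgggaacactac

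A match is a description of the sequence and not a site in use. Over the 8089 tested genes with a listed start, 4.41% had the AP-1 motif in this window, against 2.48% of the genes called higher and 5.6% of those called lower. The CCAAT box was in 34.9% of all, 28.4% of the higher and 41.7% of the lower genes. The E-box CACGTG was in 8.65%, 7.45% and 7.26%, and the ETS motif CCGGAAGT in 6.53%, 9.22% and 6.22%.

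Cornification as a whole did not follow SPRR1A. Of 36 tested genes of the cornified envelope and keratinocyte differentiation, 4 fell, none rose and 21 had opposite signs. Calls made up 11.1% of them, against 8.95% of all genes tested. The median common shift was -0.0987, and the median shift was -0.156 in A431 and 0.00747 in HSC-1. The cysteine protease inhibitor CSTA fell by 0.36 ± 0.047 (adjusted p = 0.000151, limma), by 0.36 in A431 and 0.35 in HSC-1, and the ceramide synthase CERS3 by 0.35 ± 0.074, mostly in A431. KRT13 stood at -0.66 in A431 and 0.38 in HSC-1, KRT4 at -0.79 and 0.17, and involucrin (IVL) at -0.17 and -0.18, none of which passed in common.

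Epidermal proteases and their inhibitors, which control desquamation, were lower in 8 of 14 tested and higher in none, with a median of -0.264, the lowest of the 20 lists plotted. SLPI, the secreted inhibitor of leukocyte elastase, read 9.76, 9.7 and 9.64 in A431 with DMSO against 9.23, 9.16 and 9.16, and 9.78, 9.78 and 9.74 in HSC-1 with DMSO against 9.19, 9.08 and 9.2. The lines had like levels before and after treatment, and SLPI fell by 0.56 ± 0.036 (1.48-fold; adjusted p = 1.1e-07, limma), by 0.52 in A431 and 0.61 in HSC-1. The kallikreins KLK9 (-0.75 ± 0.1) and KLK10 (-0.5 ± 0.056) fell more in HSC-1. KLK13 showed the reverse, at 7.96, 7.78 and 7.7 in A431 with DMSO against 6.46, 6.45 and 6.6, and 4.13, 4.03 and 4.36 in HSC-1 with DMSO against 3.71, 4.1 and 4.12. In HSC-1 its arrays overlapped near or below the array median, so its common shift of -0.75 ± 0.16 is mostly that of A431 (-1.31). KLK7, KLK8, ST14 and WFDC5 also fell, by 0.42, 0.26, 0.3 and 0.27. KLK6 stood at 0.2 in A431 and -0.69 in HSC-1 and did not pass.

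Many of these genes are neighbours on chromosome 1, in the epidermal differentiation complex. From S100A10 to S100A1, limits chosen after the values were seen, 61 genes had a named probe set and 32 were tested: 9 fell (S100A7, S100A8, S100A9, S100A14, S100A16, SPRR1A, SPRR1B, PGLYRP3 and PGLYRP4), none rose and 23 did not pass. Over all genes tested, 5.42% were called lower. Of the 32, 14 were below 0 in both lines, 3 were above 0 in both and the others had opposite signs. The median common shift of the 32 was -0.101.

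Genes of basal keratinocytes and adhesion had 5 of 15 lower and none higher, with a median of -0.0737. Calls made up 33.3% of them, against 8.95% of all genes tested. Of the 15, 6 were below 0 in both lines and 9 had opposite signs. The desmosomal genes DSG3 (-0.46 in A431 and 0.11 in HSC-1) and DSP (-0.17 and 0.15) were among the 9. KRT14, the basal keratin, read 9.96, 9.99 and 9.93 in A431 with DMSO against 9.72, 9.66 and 9.64, and 10.08, 10.12 and 10.1 in HSC-1 with DMSO against 9.92, 9.9 and 9.98. The fall was small but without overlap, at 0.23 ± 0.034 (adjusted p = 0.000444, limma). KRT15 fell by 0.32 ± 0.06, the desmosomal genes PKP2 by 0.25 ± 0.044 and DSG2 by 0.21 ± 0.045, and SFN by 0.21 ± 0.033, whereas KRT5, the partner of KRT14, stood at 0.034 ± 0.038 and did not pass. The 5 falls include 3 of the 9 keratinocyte markers, and the summed linear level of those 9 markers went from 6760–6970 to 5930–6080 in A431 and from 7340–7520 to 7220–7290 in HSC-1. Among markers of other cells, CD68 fell by 0.19 ± 0.038 and the summed level of the 4 leukocyte markers went from 1690–1740 to 1480–1510 in A431 and from 281–295 to 243–272 in HSC-1, with LYZ and CD163 below 3.5 on every array. Fibroblast and endothelial lists had no call (2 tested in each). In RNA from whole cultures, fewer cells of a kind and less RNA per cell cannot be told apart, and the part of such shifts in the results was not tested.

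Inflammatory mediators had 3 of 15 lower and 1 higher, with a median of -0.0958. IL1RN, the interleukin-1 receptor antagonist, read 8.28, 8.33 and 8.29 in A431 with DMSO against 7.79, 7.83 and 8.01, and 5.01, 5.18 and 4.99 in HSC-1 with DMSO against 4.2, 4.02 and 4.02. It fell by 0.7 ± 0.09 (1.63-fold; adjusted p = 0.000114, limma), and its HSC-1 everolimus arrays were below the array median. LCN2, the iron-binding lipocalin, fell by 0.48 ± 0.086, mostly in HSC-1, and SAA1, an acute phase protein, rose by 0.34 ± 0.061, mostly in A431. The ICAM1 call was lost without any of 8 arrays in turn, with an adjusted p of up to 0.0569 without HSC-1 DMSO replicate 2, and the count of lower genes became 5 without A431 everolimus replicate 3. In the interferon list 2 of 26 were lower and none higher (7.69% called, against 8.95% of all genes tested), and 17 had opposite signs. SAMD9 fell by 0.22 ± 0.041. The other, XAF1, lost its call without any of 6 arrays in turn, with an adjusted p of up to 0.075 without HSC-1 DMSO replicate 1.

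Chaperones, which help proteins fold, and genes of the unfolded protein response were lower in 8 of 15 tested and higher in none, with a median of -0.129. CALR, the calcium-binding chaperone of the endoplasmic reticulum, read 11.26, 11.26 and 11.24 in A431 with DMSO against 11.02, 11.01 and 11.02, and 10.98, 11.04 and 10.93 in HSC-1 with DMSO against 10.6, 10.6 and 10.7. The spread within a group was small and CALR fell by 0.29 ± 0.033 (adjusted p = 3.87e-05, limma). HSPB1, a small heat shock protein, fell by 0.31 ± 0.034, more in A431, and XBP1, a transcription factor of the response, by 0.28 ± 0.067. The count of 8 became 5 without HSC-1 DMSO replicate 1 or 2 or HSC-1 everolimus replicate 1 or 2.

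Oxidative stress genes under NRF2 had 4 of 9 lower and 1 higher, with a median of -0.137. GPX2, a glutathione peroxidase, read 9.3, 9.25 and 9.23 in A431 with DMSO against 9.02, 8.86 and 9.02, and 6.36, 6.3 and 6.24 in HSC-1 with DMSO against 5.69, 5.67 and 5.79, a fall of 0.44 ± 0.056 (adjusted p = 0.00012, limma). UGDH (-0.31 ± 0.04) and GSR (-0.22 ± 0.037) fell with it. TXNRD1, thioredoxin reductase, moved the other way, by 0.24 ± 0.042 in common, 0.21 in A431 and 0.28 in HSC-1.

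Proliferation genes mostly fell in HSC-1 and changed little in A431. Of 28 genes of G1/S and DNA replication, 22 had opposite signs, and of 34 genes of G2/M and mitosis, 28 did. Over all genes tested, 53.9% had the same sign, and the ribosome biogenesis list had 19 of 24 with opposite signs. The medians of the G1/S and G2/M lists were 0.0318 and 0.067 in A431 against -0.266 and -0.288 in HSC-1. In HSC-1 alone 22 and 26 of their genes passed as lower, and 1 and 0 as higher. In A431 alone 2 and 3 passed as higher and none as lower. Over all genes tested, 11.3% were lower in HSC-1 alone and 2.39% higher in A431 alone. The common fit called 2 and 3 of their genes, all lower (7.14% and 8.82%, against 8.95% of all genes tested). Without A431 DMSO replicate 3 these counts became 5 and 6, and without A431 everolimus replicate 3 they became 5 and 5. The G2/M count was 1 without A431 DMSO replicate 2 and 0 without any of the 6 HSC-1 arrays in turn. CCND3, cyclin D3, was 1 of the few that fell alike, at 5.83, 5.85 and 5.8 in A431 with DMSO against 5.6, 5.49 and 5.58, and 5.66, 5.51 and 5.5 in HSC-1 with DMSO against 5.17, 5.22 and 5.27 (-0.3 ± 0.061; adjusted p = 0.00449, limma). PCNA, the replication clamp, fell by 0.18 ± 0.041, with shifts of -0.09 in A431 and -0.27 in HSC-1, a difference that did not pass. The calls of PLK1, BIRC5 and KIF20A rested on HSC-1, with A431 shifts of -0.014, -0.042 and -0.045, and were lost without any of 8, 7 and 6 arrays in turn, with adjusted p of up to 0.0656, 0.102 and 0.0743, each without HSC-1 DMSO replicate 1.

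Growth factor output through ERK was mixed, with 2 of 20 higher and 1 lower. Over all genes tested, 3.53% were called higher and 5.42% lower. Of the 20, 11 had opposite signs, and the median shift was 0.00163 in A431 and -0.201 in HSC-1. Among the 11 were FOSL1 (0.17 in A431 and -0.97 in HSC-1), HBEGF (0.08 and -0.84) and IER3 (0.15 and -0.74). DUSP5 (-0.51 and 0.01), SPRY2 (-0.18 and 0.1) and BTC (-0.01 and 0.07) had the reverse signs. EGR1, an immediate early transcription factor, read 8.4, 8.43 and 8.45 in A431 with DMSO against 7.84, 7.95 and 7.76, and 7.05, 7.2 and 7.29 in HSC-1 with DMSO against 6.28, 6.15 and 6.11. It fell by 0.79 ± 0.072 (1.73-fold; adjusted p = 4.79e-06, limma), by 0.58 in A431 and 1 in HSC-1. MYC rose by 0.18 ± 0.039 (adjusted p = 0.00813, limma) and DUSP6, a phosphatase of ERK, by 0.25 ± 0.065. The 250 bases before the annotated start of EGR1 (RefSeq, GRCh38.p14, chr5:138465229-138465478, plus strand) hold 2 matches, in capitals, to a pattern searched on both strands. The pattern is CC, any base, TAT, any 2 bases and GG. It resembles the CArG box that serum response factor binds but is not the same, so its frequency is not that of the box. This pattern was in 0.977% of all tested genes with a start, 0.709% of the higher and 1.45% of the lower genes.
EGR1: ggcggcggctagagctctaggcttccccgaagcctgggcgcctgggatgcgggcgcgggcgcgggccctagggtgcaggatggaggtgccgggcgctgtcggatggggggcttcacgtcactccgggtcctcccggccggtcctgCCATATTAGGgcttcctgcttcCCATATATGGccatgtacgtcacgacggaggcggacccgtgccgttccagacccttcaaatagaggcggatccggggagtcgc

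Several of the largest falls belong to no list. GNE, the enzyme that starts sialic acid synthesis, read 7.64, 7.65 and 7.62 in A431 with DMSO against 6.84, 6.84 and 6.91, and 6.68, 6.67 and 6.68 in HSC-1 with DMSO against 5.29, 5.11 and 4.99. The DMSO arrays of each line nearly coincided, and GNE fell by 1.16 ± 0.11 (2.24-fold; adjusted p = 4.95e-06, limma), by 0.78 in A431 and 1.55 in HSC-1. CLCA2, a stratified epithelium protein and p53 target, read 8.73, 8.81 and 8.77 in A431 with DMSO against 7.93, 7.91 and 7.96, and 8.67, 8.64 and 8.65 in HSC-1 with DMSO against 7.35, 7.3 and 7.15. It fell by 1.11 ± 0.078 (2.16-fold; adjusted p = 2.43e-07, limma), more in HSC-1. STOM, a membrane scaffold protein, fell by 0.81 ± 0.14, mostly in HSC-1.

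CTSS, the lysosomal protease cathepsin S, fell evenly. It read 7.06, 6.96 and 6.85 in A431 with DMSO against 6.09, 5.93 and 5.99, and 5.93, 5.61 and 6.03 in HSC-1 with DMSO against 4.93, 4.85 and 4.6, a shift of -1.01 ± 0.081 (2.01-fold; adjusted p = 9.26e-07, limma), -0.95 in A431 and -1.06 in HSC-1. Ranked by how little the lines differed among called genes shifted by at least 0.5, GSDMC, a pore-forming gasdermin, came first. It read 5.28, 5.54 and 5.35 in A431 with DMSO against 4.74, 4.86 and 4.67, and 6.82, 6.65 and 6.7 in HSC-1 with DMSO against 6.16, 6.08 and 6.03, a shift of -0.63 in each line (adjusted p = 1.6e-05, limma). The next were CNTN1, an adhesion molecule (-0.64 and -0.57), S100A7, SLPI, MAB21L3 (-0.57 and -0.46, with its HSC-1 everolimus arrays below the array median) and CTSS. The water and glycerol channel AQP3 (-0.52 ± 0.057), the epidermal transcription factor GRHL1 (-0.49 ± 0.087) and the long noncoding RNA UCA1 (-0.4 ± 0.039), named after their values were seen, also fell without overlap in either line. With the mean of its probe sets in place of the highest, the UCA1 shift was -0.227.

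Outside the translation machinery, ANKRD36B, an ankyrin repeat gene, rose in both lines. It read 6.96, 6.83 and 6.97 in A431 with DMSO against 7.44, 7.46 and 7.52, and 7.2, 7.21 and 7.33 in HSC-1 with DMSO against 7.88, 8.03 and 7.89, a rise of 0.62 ± 0.049 (1.54-fold; adjusted p = 9.26e-07, limma). ANTXR1, an anthrax toxin receptor that binds collagen, rose by 0.54 ± 0.061 and the adhesion protein AMIGO2 by 0.56 ± 0.1, by 0.87 in A431 and 0.26 in HSC-1. The receptor kinase AXL rose by 0.37 ± 0.05 (adjusted p = 0.000163, limma), by 0.51 in A431 and 0.23 in HSC-1. A further 3 risers had most of their shift in HSC-1, namely MXRA5 (0.16 and 1.23), KLHL24 (0.14 and 1.04) and CCDC146 (0.19 and 0.83), and their arrays did not overlap in A431 although the A431 shift alone did not pass. Named after their values were seen, the activin antagonist FST rose by 0.48 ± 0.063, the inhibitory SMAD6 by 0.43 ± 0.071, NOTCH1 by 0.31 ± 0.049 and the proapoptotic BCL2L11 by 0.27 ± 0.063.

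Of 442 tested microRNA genes, 9 were called higher and 3 lower, 2.71% against 8.95% of all genes. The 9 became 4 without HSC-1 everolimus replicate 1, and 5 without HSC-1 DMSO replicate 1, HSC-1 DMSO replicate 2 or HSC-1 everolimus replicate 2. The array reads RNA that overlaps the gene and does not separate the mature microRNA from its longer precursor. MIR181A2 had the largest rise of them, at 2.59, 2.82 and 3.06 in A431 with DMSO against 3.52, 3.06 and 3.38, and 4.37, 4.89 and 4.88 in HSC-1 with DMSO against 5.89, 5.77 and 5.45. The common shift was 0.75 ± 0.13 (adjusted p = 0.00205, limma), but all A431 arrays lay below the array median and in A431 the highest DMSO and lowest everolimus values meet at 3.06 when rounded. Its host transcript MIR181A2HG passed at 0.5 ± 0.085, but all 6 of its A431 arrays were below the array median too. The neighbours MIR23B (0.58) and MIR27B (0.48), and MIR222 (0.49) and MIR221 (0.31), rose almost only in HSC-1, with A431 shifts of 0.04 to 0.11 and differences between the lines that passed. The calls of MIR222 and MIR221 were lost without any of 5 and 7 arrays in turn, with adjusted p of up to 0.0682 and 0.0991 without HSC-1 everolimus replicate 2.

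The mature sequences of these genes are shown with the seed, bases 2 to 8, in capitals (RefSeq, GRCh38.p14), because the seed sets which transcripts a microRNA can pair with. The miR-221-3p and miR-222-3p sequences share the seed GCUACAU, and the other 3 each have a seed of their own.
hsa-miR-181a-5p: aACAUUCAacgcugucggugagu
hsa-miR-23b-3p: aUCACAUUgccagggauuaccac
hsa-miR-27b-3p: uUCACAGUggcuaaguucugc
hsa-miR-221-3p: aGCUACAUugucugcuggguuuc
hsa-miR-222-3p: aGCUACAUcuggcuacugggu

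In the direction of falls, small NF90-associated RNAs (the SNAR family, typed by RefSeq as snRNA) gave 5 of 8 tested lower and none higher. Calls thus made up 62.5% of the snRNA genes, against 8.95% of all genes tested. The count became 3 without HSC-1 DMSO replicate 2, HSC-1 everolimus replicate 1 or HSC-1 everolimus replicate 2. SNAR-H fell by 0.8 ± 0.12 (adjusted p = 0.000403, limma), by 0.37 in A431 and 1.23 in HSC-1, and SNAR-B1 and SNAR-C1 by 0.68 and 0.58, with A431 shifts of -0.13 and -0.14. Copies of this family are nearly identical in sequence, so their probe sets may read the same RNA and are not independent. Noncoding genes were unevenly divided: 54 of the 375 risers (14.4%) and 21 of the 575 genes that fell (3.65%) were not protein coding, against 13% of all tested. The median length of the gene was 36 kb among the risers, 23.8 kb among the genes that fell and 22.9 kb over all tested genes.

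Within the common effect HSC-1 mostly had the larger shift. This was so for 637 of the 950 genes (67.1%), against 57.6% of all tested genes. The difference between the lines, tested as a contrast, passed for 195 of the 950, with the larger shift in HSC-1 for 150 and in A431 for 45; over all genes tested it passed for 1118 (10.5%), of which 256 had the same sign in both lines (2.41%). Of the 950, 373 passed in A431 alone, 716 in HSC-1 alone and 80 in neither, and 34 lay below the array median on all 3 arrays of some group. The sign rule had no minimum size: P3H2 was just inside it with -0.91 in A431 and -0.0021 in HSC-1, as were TMEM171 (-0.013 and -0.55) and PLK1, while CDC6 (0.0016 and -0.55), DCTPP1 (0.011 and -0.48) and COTL1 (0.018 and -0.53) were just outside. The calls of P3H2 and TMEM171 were lost without any of 7 and 9 arrays in turn.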

How the data were processed

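RNA of 12 samples, 3 in each of 4 groups, was measured on Affymetrix arrays. Per the submitters' processing notes, the authors used RMA and Affymetrix Expression Console, and they deposited log2 expression values for each probe set. For tool versions, summary level and build, the answer is not given in the sources used here. Since RMA makes array distributions alike, a change of total RNA per cell is not visible. The number of arrays limits the precision.

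Of 53617 probe sets, 16098 had 1 gene symbol in the platform annotation, none had several and 37519 were unnamed here. The 16098 were all matched by Entrez identifier, and they gave 14884 genes, 779 of them with several probe sets. A gene was represented by its probe set of highest mean. Genes with at least 3 of 12 arrays above the array median were fitted with limma 3.58.1 in R 4.3.3 (treatment and cell line as terms, eBayes with an intensity trend, Benjamini-Hochberg adjustment, threshold 0.05), and each line and the difference between lines with 4 group means. Python 3.11.15 and pandas 2.3.3 did the rest. The fits were tested on simulated data. The additive SE includes the difference between the lines.

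The members and gene lists were chosen with earlier results of these data known. Genes were named by a rule: the 12 largest rises and falls among called genes without overlap in either line, up to 4 called genes per list or else its member with the smallest p, the 6 called genes shifted by at least 0.5 that differ least between lines, the genes at the edge of the sign rule, and a panel of 30 genes of mTOR signalling, growth factor receptors and keratinocytes. Of the panel 19 were tested, 9 were called and 11 were without a named probe set. Other genes were named after their values were seen. Alternatives covered normalization, filters, variance models, the probe set per gene, a replicate block and leaving out each array. The labels do not say whether replicate numbers pair the samples. Correlations of deviations between same-numbered DMSO and everolimus arrays were from -0.1448 to 0.01805 in A431 and from -0.1545 to -0.0107 in HSC-1. Between differently numbered arrays they reached 0.1734 in A431 and 0.1692 in HSC-1. Such correlations cannot decide whether arrays shared a culture or a batch. Sequences are from RefSeq (GRCh38.p14).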

Additional observations from a re-analysis of the deposited data

Results flagged for a closer look

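Of the genes with the same sign in both lines, 256 had shifts that differed in size between A431 and HSC-1 in the limma contrast of the lines. Those taken by the naming rule, or named after their values were seen, are given here with the HSC-1 shift minus the A431 shift (log2). No cause was tested.

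Among genes that fell, the fall was larger in HSC-1 for epidermal and inflammatory genes: S100A8 (-1.08), S100A9 (-0.91), KLK9 (-0.79), KLK10 (-0.36), IL1RN (-0.55), ICAM1 (-0.91), LCN2 (-0.55) and CLCA2 (-0.55). The same held for GNE (-0.77), STOM (-0.96), EGR1 (-0.42), ELOVL6 (-0.56), XAF1 (-0.35), GPX2 (-0.28), XBP1 (-0.34), MMP13 (-0.85), LOXL2 (-0.52), TMEM171 (-0.53), STC1 (-1.29) and MLKL (-0.67). Growth and division genes with a larger fall in HSC-1 were NOP2 (-0.4), PLK1 (-0.5), BIRC5 (-0.35) and KIF20A (-0.33). The small NF90-associated RNAs SNAR-H (-0.86), SNAR-B1 (-1.12), SNAR-C1 (-0.87) and SNAR-D (-1.16) did likewise.

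The fall was larger in A431 for DDIT4 (0.19), SREBF1 (0.3), SCD (0.45), CERS3 (0.44), KLK13 (1.12), KRT15 (0.4), HSPB1 (0.17), P3H2 (0.91), CEACAM5 (0.82) and CEACAM6 (0.84).

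Among genes that rose, the rise was larger in HSC-1 for the translation genes NOP53 (0.48), EEF1G (0.31), EIF4B (0.22), EEF2 (0.16) and the pseudogene RPL13AP20 (0.22), and for the receptors and adaptor FGFR2 (0.5), IGF1R (0.25) and IRS2 (0.75). It was also larger there for the noncoding SCARNA7 (0.42), SCARNA10 (0.35), SCARNA17 (0.24), MIR23B (1.01), MIR27B (0.75), MIR221 (0.48) and MIR222 (0.9). Others were MXRA5 (1.08), KLHL24 (0.9), CCDC146 (0.64), GTF2IRD2 (0.48), LAMP1 (0.25), FN1 (0.81), F2RL2 (1.34) and FST (0.34). The rise was larger in A431 for AMIGO2 (-0.61), SAA1 (-0.36), AXL (-0.28) and PTGIS (-0.63). Some of these common calls were unstable. Those of F2RL2, MMP13 and SNAR-D were each lost without any of 8 arrays in turn. The calls of FN1 and PTGIS were each lost without any of 7. In A431 the shift of FN1 was 0.03 and that of MMP13 was -0.02.

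Probe sets without a gene symbol were outside the gene comparisons. A separate limma fit took all probe sets, named and unnamed, together. Of the unnamed, 17588 were tested, and 511 were higher and 309 lower in both lines (4.66%). Of 11394 named probe sets, 262 were higher and 407 lower (5.87%).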

How the results depend on the processing

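The replicate block, which puts the replicate number within each line in place of the line term, gave 145 higher genes in place of 375 and 247 lower genes in place of 575; 389 of its 392 calls were among the 950, and 22 ribosomal protein genes rose in place of 26. It gave 175 for the 256 genes whose shifts differed between the lines. An adjusted p of 0.01 gave 160 higher and 240 lower genes, a common shift of at least 1.5-fold gave 7 and 26, and passing in each line alone gave 83 and 136. With 4 group means 872 genes were lower. Without the intensity trend 156 genes of the same sign differed between the lines, and 438 genes changed in A431, an alternative chosen after seeing the data. Leaving out each array in turn gave 244 to 372 higher genes, 391 to 605 lower genes, 185 to 271 that differed between the lines, 456 to 836 in A431 and 1405 to 2032 in HSC-1. The cause was not tested. Of 142 called genes taken by the naming rule or after their values were seen, 85 kept the call under every alternative run for them, 57 lost it under at least 1, and none changed sign in its common shift. The signs that turned were of genes not called: NFE2L1 with quantile normalization (0.00171), EGFR with array weights (-0.000761) and with quantile normalization (-0.0376), and, with arrays left out, EGFR (-0.0151 to 0.0152) and ERBB3 (-0.0614 to 0.0378). Signals below the array median limit the A431 shifts of S100A7, SPRR1B, STC1, MIR181A2 and MIR181A2HG.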
